A study of Mus musculus with 6 samples.

Results

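Mouse embryonic fibroblasts of replicate 2 were compared with those of replicates 1 and 3 in 2 lines, 1 made with control virus and 1 made with Cre. The 2 replicate 2 libraries of the 6 in the series, 1 of each line, were selected on the measured RPKM, in which they had been seen to stand apart from the other 4. The difference between them and the others is therefore described here and is not evidence of its own. In replicate 2, 22 of 27 tested immediate early genes, 21 of 27 contractile genes and 21 of 27 ribosome assembly genes were called higher (limma, adjusted p under 0.05). All 25 cholesterol synthesis genes and 9 of 15 fatty acid synthesis genes were called lower. So were 19 of 31 interferon response and antigen presentation genes, 19 of 31 lysosome and autophagy genes and 10 of 20 collagens. Of all 11067 genes tested, 10.8% were called higher and 19.8% lower. Ctgf and Egr1 differed by 3.17 ± 0.34 and 2.73 ± 0.18 on the log2 scale (difference ± SE), Col3a1 by -2.37 ± 0.22 and the sterol synthesis gene Insig1 by -1.85 ± 0.11, each with 2 libraries against 4.

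The cells came from Nf2fl/fl mice on an FVB background, in which loxP sites flank part of both Nf2 alleles, and Nf2 encodes the tumour suppressor Merlin. The labels give the embryos as about 14 days old, and the study's methods as 1 day younger. The cells had been immortalised with a lentivirus for SV40 large T antigen and then transduced with CMV-GFP control virus (MEF Nf2fl/fl, called WT (control) in the labels) or with CMV-Cre GFP virus (MEF Nf2-/-, called Nf2 KO), so all 6 libraries share the floxed background, the large T antigen and a GFP virus, and each genotype is represented by 1 line (the control line and the Cre line). Both lines were kept in medium with 10% fetal bovine serum and, by the labels, spent 24 h without serum before RNA extraction in every replicate. In the labels, replicate 1 carries the library numbers 13 and 14 and the mark A, replicate 2 the numbers 15 and 16 and the mark B, and replicate 3 the year 2018. Nothing in the labels says that the replicates were separate cultures, so any p-value measures only the spread between these libraries, and culture state and batch cannot be told apart for replicate 2.

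Serum-starved fibroblasts are a classic system for growth-factor signalling. On stimulation, immediate early genes such as Fos and Egr1 are transcribed within minutes, and serum response factor (SRF) with its actin-regulated partners switches on cytoskeletal genes. The Hippo pathway, in which Merlin acts upstream, restrains the coactivators YAP and TAZ, whose targets include Ctgf and Cyr61. Sterol synthesis follows the membrane-bound factor SREBP2, which is released when cell sterols are low, and quiescent fibroblasts are known for growth-arrest genes such as Gas1.

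The deposited values are RPKM, reads scaled to exon length and to library size, for 26231 genes. The step between low values places the depth at about 18917767 and 19242503 reads in replicate 2, within the range of 13428798 to 72911147 over the 6 libraries. A gene entered the comparison if 3 or more libraries had 1 RPKM or more, which left 11067 genes, and all differences are on the log2(RPKM + 1) scale, where low values shrink a fold change. Nf2 itself (chromosome 11, 4765845 to 4849536, GRCm38) had 14.3, 13.7 and 13.1 RPKM in the MEF Nf2fl/fl libraries and 15.4, 12.9 and 13.9 RPKM under the MEF Nf2-/- label, levels that overlapped between the lines. Each gene has 1 value over its whole length in the table, so loss of the floxed part cannot be checked from it, and the MEF Nf2-/- label is used here as a name only. Among 12 fibroblast markers, Vim, Col1a1, Col1a2, Col3a1, Pdgfrb, Twist1 and Prrx1 were at or above 6.95 RPKM in all 6 libraries. Lum and Fap were at most 0.247 and 0.0290 RPKM. Dcn was at most 4.01 RPKM in MEF Nf2fl/fl and 0.133 RPKM under the MEF Nf2-/- label. Pdgfra was at 5.22 to 12.3 RPKM in MEF Nf2fl/fl and at 0.657 to 1.42 RPKM under the MEF Nf2-/- label. Thy1 was at 1.85 to 7.04 RPKM and was highest in replicate 2 of each line. Of defining markers of other cell types, Epcam (epithelium) reached 0.216 RPKM and Myog (muscle) 0.259 RPKM. Sox9 (cartilage) was present at 5.79 to 18.9 RPKM. Cdh1 (epithelium), Ptprc and Adgre1 (macrophages), Pecam1 and Cdh5 (endothelium) and Sox10 and Gfap (glia) reached at most 0.10 RPKM. Of the neuronal markers, Map2 was at 2.65 to 10.9 RPKM and Stmn2 at 0.454 to 3.03 RPKM, and the 7 neural and glial markers summed to 4.86 and 8.92 RPKM in replicate 2 and to 4.35 to 12.3 RPKM elsewhere.

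Throughout, values are listed for replicates 1, 2 and 3 in that order, and an error after a difference is its standard error in a limma fit with the line as a block. A gene is said to be called when its adjusted p in that fit was under 0.05, which serves here only to sort genes. Where a pair of counts is given with a replicate 2 library left out, the first is without the MEF Nf2fl/fl library and the second without the one labelled MEF Nf2-/-, and each then rests on replicate 2 of the other line alone. Of the 11067 genes, 3386 (30.6%) were called, 1195 (10.8%) higher and 2191 (19.8%) lower in replicate 2. Of these calls 35.3% were on the higher side, against 52.5% after median centring and 52.4% after quantile normalization. The median difference over all genes was -0.078 before centring. Without the MEF Nf2fl/fl replicate 2 library 832 genes were called, and without the one labelled MEF Nf2-/- 699 were. In 6936 genes (62.7%) the replicate 2 library lay outside both other libraries of its line in the same direction in both lines, and in 700 it lay outside in opposite directions. All 3386 called genes had the same sign in both lines, which the calling itself favours, since opposite differences cancel in a fit with the line as a block.

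The differences were large against those between the other 2 replicates. The median absolute difference over genes was 0.209 in MEF Nf2fl/fl and 0.209 under the MEF Nf2-/- label, while replicates 1 and 3 differed by medians of 0.114 and 0.132. Averaged over lines, 253 genes differed by more than 1 on the log2 scale, 118 higher and 135 lower, against 14 between replicates 1 and 3. On the plot of difference sizes the replicate 2 curve lies to the right of the other over its whole range. The first principal component of the tested genes held 50.31% of the variance and placed replicate 2 at 23.6 and 30.0, and the other 4 libraries between -17.5 and -6.67.

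**Figure D1:**
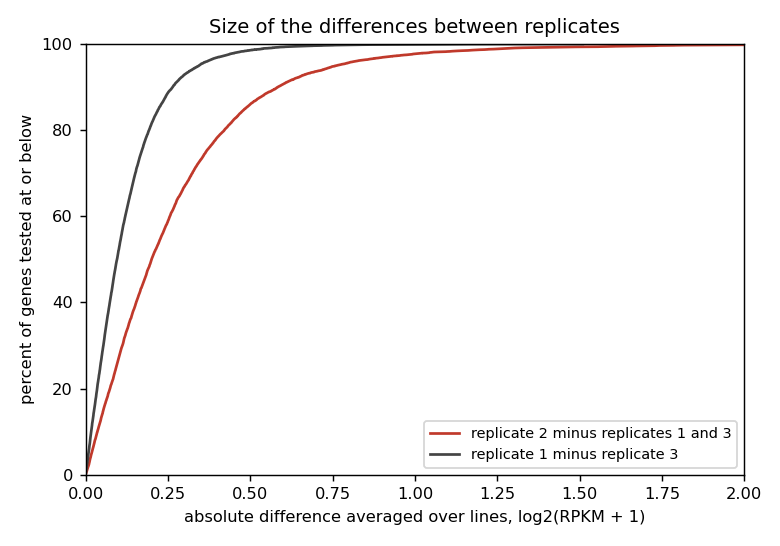
Cumulative percent of the 11067 genes tested (vertical axis) by the absolute log2(RPKM + 1) difference averaged over both lines (horizontal axis), for replicate 2 minus replicates 1 and 3 (red) and for replicate 1 minus replicate 3 (grey). The median is 0.200 for the red curve and 0.096 for the grey curve.

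Both lines showed the difference with like median sizes. Across genes the replicate 2 differences of the lines correlated at r = 0.819, a description over 11067 genes that are not independent and whose libraries share a number and a mark. Whether the difference depended on the line was examined with the interaction term. The replicate 2 libraries of both lines had been chosen for standing apart from the others. Agreement between the lines may thus be favoured by the choice, and the interaction is given as a description. In limma 0 of 11067 genes (0%) passed an adjusted p under 0.05, the smallest adjusted p was 0.841, and 313 genes (2.83%) had an unadjusted p under 0.05. With voom on recovered reads 0 passed as well, with 270 at an unadjusted p under 0.05. The fit leaves 2 degrees of freedom, and a p that misses the threshold does not show that the lines differed equally. Without the library labelled MEF Nf2-/- replicate 1, 11 genes passed, and without the one labelled MEF Nf2-/- replicate 3, 16 passed, among them Id1, Id3, Ogn and S100a7a. The comparison of replicate 1 with replicate 3 gave 0 genes (0%) past an adjusted p under 0.05 in limma, with 1085 at an unadjusted p under 0.05.

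**Figure D2:**
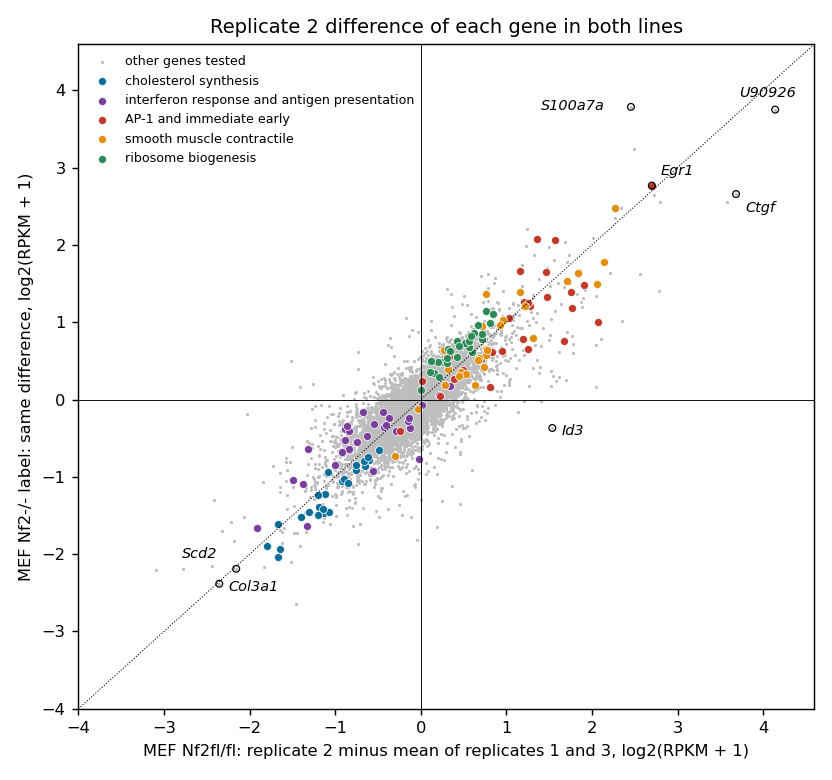
Each point is a gene, placed by its replicate 2 difference in MEF Nf2fl/fl (horizontal) and under the MEF Nf2-/- label (vertical), both in log2(RPKM + 1), with 5 gene lists in colour and the dotted line marking equal differences. The coloured lists lie along the dotted line, and Id3 lies apart at 1.54 and -0.37.

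Immediate early genes had the highest median of the gene lists. Of 27 tested genes of the AP-1 and immediate early list, 22 were called higher and 0 lower, against 10.8% and 19.8% of all genes, with a median difference of 1.22 (1.20 in MEF Nf2fl/fl and 1.00 under the MEF Nf2-/- label). With a replicate 2 library left out 16 and 15 members were called higher. Egr1, a zinc finger transcription factor induced by serum, had 9.24, 79.3 and 13.9 RPKM in the control line and 6.85, 44.9 and 4.78 RPKM in the Cre line. Both replicate 2 libraries lay above all 4 others, and the difference was 2.73 ± 0.18. Fosl1, an AP-1 subunit, had 26.3, 76.0 and 32.2 RPKM in the control line and 13.2, 51.2 and 9.78 RPKM in the Cre line, and Jun, its dimer partner, had 35.0, 71.2 and 33.7 RPKM in the MEF Nf2fl/fl libraries and 16.0, 33.0 and 14.7 RPKM under the MEF Nf2-/- label. In both genes the replicate 2 library was the highest of its line, although the Jun level of the library labelled MEF Nf2-/- replicate 2 was below those of MEF Nf2fl/fl replicates 1 and 3. Fos, the founding member, was low throughout, with 1.39, 4.46 and 1.37 RPKM in the control line and 3.06, 4.47 and 1.48 RPKM in the Cre line, a difference of 0.99 ± 0.20. Fosl1 shares 54.5% of its 31-base words with transcripts of other genes, which leaves the assignment of its reads uncertain.

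Dusp5, a phosphatase that inactivates ERK in the nucleus and shares 21.2% of its words with other genes, had 7.42, 27.8 and 10.3 RPKM in the control line and 6.97, 35.8 and 8.66 RPKM in the Cre line, a difference of 1.82 ± 0.17. Ier2, an early-response nuclear protein, had 9.52, 41.9 and 11.5 RPKM in the MEF Nf2fl/fl libraries and 9.04, 26.6 and 8.73 RPKM under the MEF Nf2-/- label and differed by 1.69 ± 0.12. In both genes the replicate 2 libraries were above all others. Dusp1, Dusp6, Spry2 and Spry4 were also called higher, while Dusp4, Zfp36, Klf4, Jund and Nr4a2 were not called. Ereg (epiregulin), a ligand of the epidermal growth factor receptor and among the 8 largest differences, had 4.44, 30.1 and 5.96 RPKM in the control line and 2.44, 19.3 and 2.83 RPKM in the Cre line, so both replicate 2 libraries were above every other.

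Contractile genes, many of them SRF targets, formed the next group. In this list 21 of 27 tested genes were called higher and 1 lower, Csrp2, with a median of 0.71 and 5 further genes under the filter. The medians were 0.76 and 0.64 in the lines, and with a replicate 2 library left out 8 and 9 members were called higher. Acta2 (smooth muscle actin, chromosome 19, 34241090 to 34255590) reached 302, 1625 and 501 RPKM in the control line and 625, 2066 and 851 RPKM in the Cre line. Replicate 2 was the highest library of each line, and the difference was 1.78 ± 0.25. Tagln (transgelin), an actin-binding protein, had 152, 821 and 225 RPKM in the MEF Nf2fl/fl libraries and 157, 733 and 289 RPKM under the MEF Nf2-/- label, a difference of 1.96 ± 0.27, and shares 62.2% of its words with other genes. Actg2, enteric smooth muscle actin, had 3.48, 28.8 and 7.54 RPKM in the control line and 4.01, 32.2 and 6.03 RPKM in the Cre line and the largest difference of the list at 2.37. Cnn1 (calponin) had 0.923, 4.82 and 2.25 RPKM in the control line and 1.05, 4.43 and 1.71 RPKM in the Cre line, low levels that were nonetheless highest in both replicate 2 libraries. Replicates 1 and 3 differed in this list by a median of -0.21 for replicate 1 minus replicate 3. Acta1, the actin of skeletal muscle, had 0.580, 6.25 and 0.606 RPKM in the MEF Nf2fl/fl libraries and 0.252, 2.57 and 0.425 RPKM under the MEF Nf2-/- label and was under the filter. The 5 skeletal muscle markers with a value summed to 6.27 and 2.73 RPKM in replicate 2, nearly all from Acta1, against 0.539 to 0.774 RPKM elsewhere.

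Fhl1, a LIM protein of muscle, had 47.3, 176 and 49.6 RPKM in the control line and 37.8, 135 and 47.9 RPKM in the Cre line, and in both replicate 2 libraries it was above every other library, by 1.74 on average. The 250 bases before one of its RefSeq starts (chrX:56779433-56779682, plus strand, GRCm38.p6) are shown because they hold the SRF-binding motif named the CArG box, marked in capitals at position -102 from the start.
Fhl1: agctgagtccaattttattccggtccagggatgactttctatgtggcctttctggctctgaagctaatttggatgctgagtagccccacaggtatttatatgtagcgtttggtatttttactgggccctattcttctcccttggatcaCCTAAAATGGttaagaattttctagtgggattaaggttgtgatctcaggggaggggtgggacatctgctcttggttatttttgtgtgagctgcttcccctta
This motif was found in the windows of 8 of 23 contractile genes with a promoter in the RefSeq table (34.8%) and of 2 of 20 immediate early genes (10.0%), against 1.47% of all 32851 windows. A match is a description of letters and not a binding site.

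Genes known as targets of YAP and TAZ included several of the largest differences. Of 22 tested, 10 were called higher and 3 lower, with a median of 0.24. With a replicate 2 library left out 4 and 7 were called higher. Ctgf (also Ccn2, chromosome 10, 24595442 to 24598683), a secreted matricellular protein, had 44.5, 739 and 71.9 RPKM in the control line and 79.1, 673 and 141 RPKM in the Cre line. Cyr61 (also Ccn1), its relative, had 117, 733 and 129 RPKM in the MEF Nf2fl/fl libraries and 229, 762 and 263 RPKM under the MEF Nf2-/- label. Both replicate 2 libraries were above the other 4 in these genes, with differences of 3.17 ± 0.34 for Ctgf and 2.10 ± 0.20 for Cyr61. By line they were 3.68 in MEF Nf2fl/fl and 2.66 under the MEF Nf2-/- label for Ctgf, and 2.56 and 1.63 for Cyr61. F3, tissue factor, had 32.7, 106 and 41.6 RPKM in the control line and 43.8, 165 and 38.6 RPKM in the Cre line, a difference of 1.73 ± 0.14. Arhgef17, Gadd45a and Rbms3 were called lower, and Amotl1, Crim1 and Ptpn14 were not called, so the list was mixed below its leading members.

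Ankrd1, an ankyrin repeat protein of the nucleus and sarcomere, had 109, 371 and 95.1 RPKM in the control line and 82.8, 312 and 126 RPKM in the Cre line, a difference of 1.73 ± 0.17. Its 250 bases before the start (chr19:36119845-36120094, minus strand) are shown because they hold GGAATG, the core letters bound by the TEAD partners of YAP, searched on both strands and marked in capitals at -210 and -123.
Ankrd1: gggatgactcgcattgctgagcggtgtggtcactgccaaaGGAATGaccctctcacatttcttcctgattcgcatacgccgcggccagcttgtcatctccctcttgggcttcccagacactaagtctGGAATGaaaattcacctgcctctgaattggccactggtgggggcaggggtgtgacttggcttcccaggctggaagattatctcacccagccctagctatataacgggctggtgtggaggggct
These 6 letters occurred in the windows of 7 of 15 genes of the list (46.7%) and in 12.6% of all windows. No match overlapped a match of another motif searched.

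**Figure D3:**
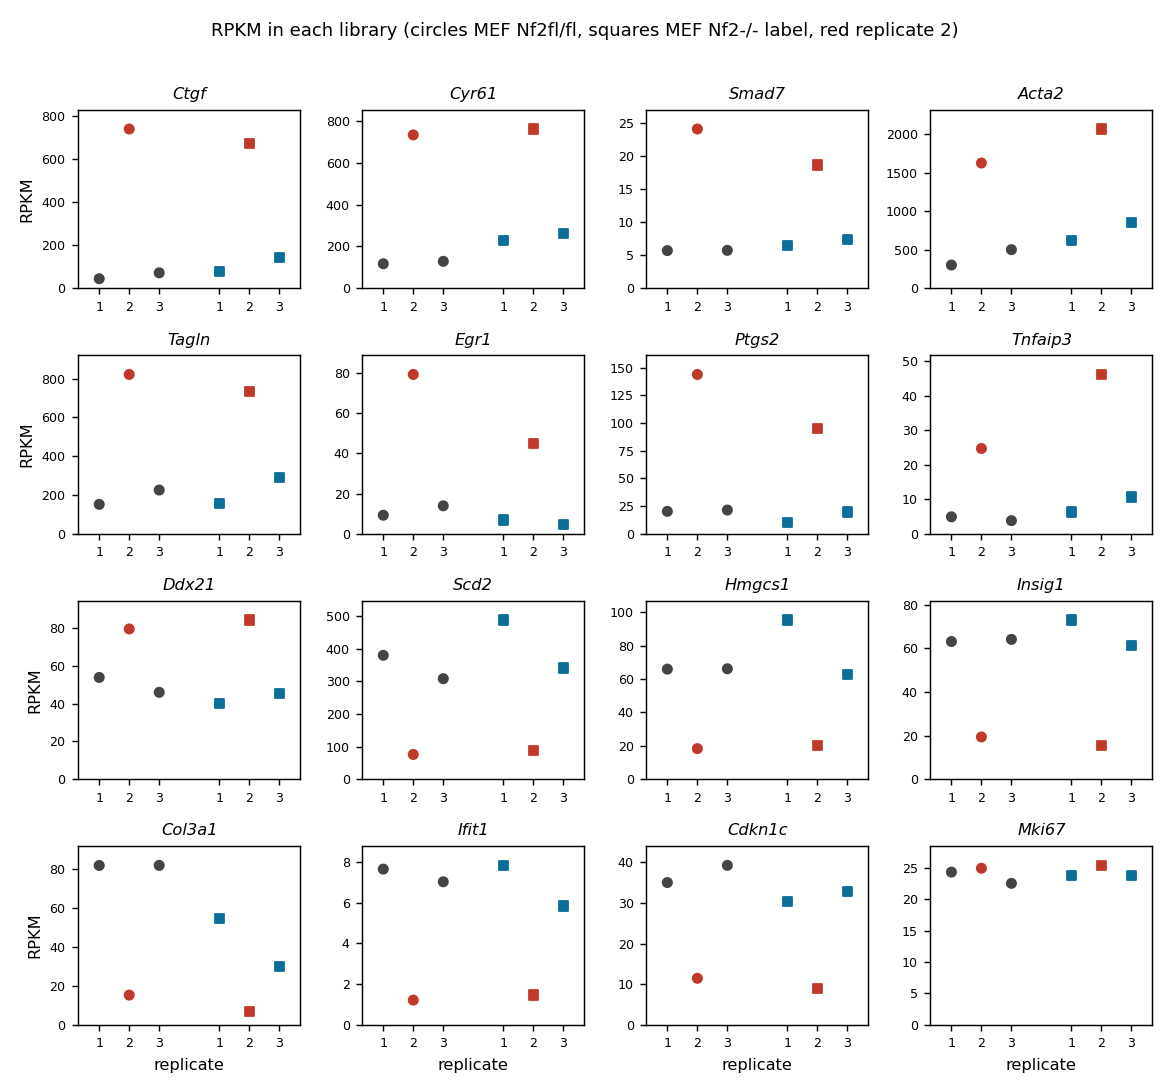
RPKM (linear axes from 0) of 16 genes in each library, with circles for MEF Nf2fl/fl, squares for the MEF Nf2-/- label and red for replicate 2. In the first 9 panels both red points are above the others of their line, in the next 6 they are below, and for Mki67 all 6 points lie between 22.5 and 25.4 RPKM.

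Among adhesion and cytoskeleton genes more were called higher than lower, and many were not called. Of 25 integrin and focal adhesion genes 13 were called higher and 3 lower (median 0.30), and of 40 actin dynamics genes 14 were called higher and 1 lower (median 0.19). With a replicate 2 library left out 2 and 5 of the integrin and 3 and 5 of the actin genes were called higher, and leaving out replicate 1 of either line or replicate 3 of MEF Nf2fl/fl left 9 of the actin genes. Itgb1, the integrin beta subunit shared by most matrix receptors, had 249, 449.5 and 307 RPKM in the MEF Nf2fl/fl libraries and 289, 434 and 312 RPKM under the MEF Nf2-/- label, a difference of 0.61 ± 0.12. Fermt2 (kindlin), which activates integrins, had 14.2, 29.6 and 15.8 RPKM in the control line and 15.9, 34 and 19.6 RPKM in the Cre line, a difference of 0.92 ± 0.10. Arpc5, a subunit of the complex that branches actin, had 73.7, 128 and 76.3 RPKM in the control line and 76.6, 126 and 72.6 RPKM in the Cre line, a difference of 0.76 ± 0.08. Rhob, a small GTPase of the actin network, had 52.7, 97.1 and 41.6 RPKM in the MEF Nf2fl/fl libraries and 37.0, 42.8 and 36.4 RPKM under the MEF Nf2-/- label, a difference of 0.63 ± 0.19 that was 1.04 in MEF Nf2fl/fl and 0.22 under the MEF Nf2-/- label. Myh9, the heavy chain of non-muscle myosin, had 185, 251 and 176 RPKM in the control line and 175, 249 and 201 RPKM in the Cre line, a difference of 0.44 ± 0.10. Apart from Rhob, both replicate 2 libraries were above all others in these genes.

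Genes of TGF-beta signalling were divided. Of 21 tested, 7 were called higher and 2 lower, with a median of 0.23 (0.03 and 0.36 with a replicate 2 library left out, when 3 and 5 were called higher). Smad7, which terminates the signal, had 5.70, 24.1 and 5.74 RPKM in the control line and 6.47, 18.6 and 7.39 RPKM in the Cre line, a difference of 1.61 ± 0.13. The replicate 2 libraries were above all 4 others. Cdkn2b, a cyclin-dependent kinase inhibitor induced by TGF-beta, went the other way, with 45.9, 22.7 and 47.0 RPKM in the MEF Nf2fl/fl libraries and 56.0, 18.9 and 37.0 RPKM under the MEF Nf2-/- label and a difference of -1.11 ± 0.16.

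BMP response genes had the widest gap between the medians of the lines. Of 11 tested, 5 were called higher and 1 lower, Bmp4, with medians of 1.19 in MEF Nf2fl/fl and 0.37 under the MEF Nf2-/- label, and 0 and 5 were called higher with a replicate 2 library left out and 3 without MEF Nf2fl/fl replicate 1 or MEF Nf2-/- replicate 3. In 6 of the 11 the difference between lines had an unadjusted p under 0.05 in limma, against 2.83% of all genes. Id1, an inhibitor of basic helix-loop-helix factors, had 20.9, 81.3 and 25.3 RPKM in the control line and 43.2, 55.2 and 29.7 RPKM in the Cre line. Id3, its relative, had 30.3, 104 and 40.8 RPKM in the control line and 122, 74.2 and 75.2 RPKM in the Cre line. In MEF Nf2fl/fl replicate 2 was above both others in each gene, while under the MEF Nf2-/- label it was above both for Id1 and below both for Id3. The difference under the MEF Nf2-/- label minus that in MEF Nf2fl/fl was -1.17 ± 0.33 for Id1 and -1.90 ± 0.45 for Id3, with adjusted p of 1 and 1 in limma, so neither passed. Outside the list, S100a7a, an S100 calcium-binding protein, had 1.08, 9.84 and 0.878 RPKM in the MEF Nf2fl/fl libraries and 0.442, 22.1 and 0.944 RPKM under the MEF Nf2-/- label, with a difference between lines of 1.33 ± 0.28 (adjusted p = 0.841 in limma), and did not pass.

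**Figure D4:**
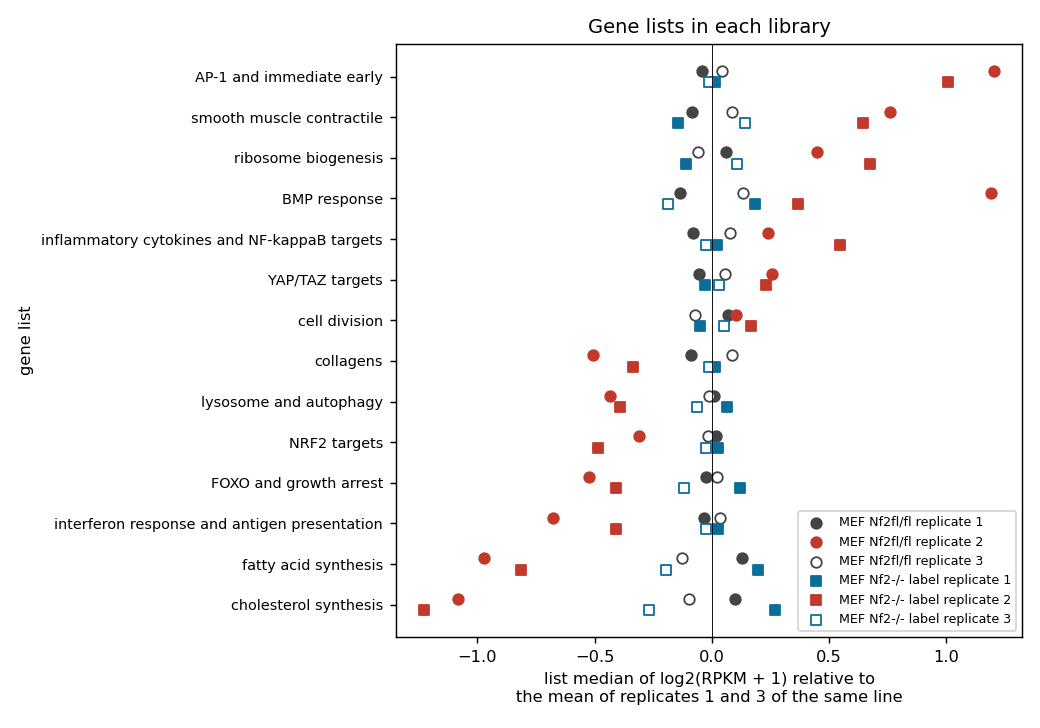
Median over the tested members of each gene list of log2(RPKM + 1) relative to the mean of replicates 1 and 3 of the same line, for each of the 6 libraries. Replicates 1 and 3 mirror each other by construction, and the red replicate 2 points of both lines lie on the same side of 0 in the 14 lists drawn (34 of all 37 lists, the exceptions being circadian clock, tubulins and p53 targets), at 1.19 and 0.37 for the BMP response.

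Inflammatory genes were higher or not called. Of 21 tested genes of the NF-kappaB list 9 were called higher and 0 lower, with a median of 0.41 (0.24 in MEF Nf2fl/fl and 0.55 under the MEF Nf2-/- label), and 11 more were under the filter. In 7 of the 21 the difference between lines had an unadjusted p under 0.05 in limma. With a replicate 2 library left out 9 and 8 were called higher. Ptgs2 (cyclooxygenase 2, chromosome 1, 150100031 to 150108227), the inducible enzyme of prostaglandin synthesis, had 20.3, 144 and 21.4 RPKM in the control line and 10.2, 94.8 and 19.7 RPKM in the Cre line, a difference of 2.69 ± 0.22. Tnfaip3, which limits NF-kappaB signalling, had 4.91, 24.7 and 3.81 RPKM in the control line and 6.32, 46.2 and 10.7 RPKM in the Cre line, a difference of 2.31 ± 0.19. Csf1, the macrophage growth factor, had 101, 265 and 112 RPKM in the MEF Nf2fl/fl libraries and 123, 341 and 151 RPKM under the MEF Nf2-/- label, a difference of 1.31 ± 0.11 with no overlap between replicate 2 and the others. Ccl2, a monocyte chemokine, had 22.8, 38.3 and 31.1 RPKM in the control line and 30.1, 83.7 and 35.1 RPKM in the Cre line, while Cxcl1, a neutrophil chemokine, stayed between 0.949 and 2.21 RPKM and was not called. U90926 had the largest difference of all genes over 5 RPKM on average, with 0.743, 29.9 and 0.755 RPKM in the control line and 0.622, 27.0 and 1.66 RPKM in the Cre line and a difference of 3.95 ± 0.20. Cyp4a12b, a fatty acid hydroxylase, had 1.30, 15.3 and 1.39 RPKM in the MEF Nf2fl/fl libraries and 1.87, 15.7 and 1.83 RPKM under the MEF Nf2-/- label, but shares 62.9% of its words with other genes.

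Of 27 ribosome biogenesis genes 21 were called higher and 0 lower, with a median of 0.60. In 26 of 27 both replicate 2 libraries were the highest of their line. After a replicate 2 library was left out, 14 and 3 were called higher. Ddx21, a nucleolar helicase, had 53.9, 79.6 and 46.0 RPKM in the control line and 40.3, 84.4 and 45.5 RPKM in the Cre line, a difference of 0.81 ± 0.11. Rrs1, an assembly factor of the large subunit, had 27.3, 47.4 and 25.9 RPKM in the control line and 19.9, 46.5 and 26.5 RPKM in the Cre line, a difference of 0.90 ± 0.12. Ncl (nucleolin), the main nucleolar protein, had 116, 133 and 98.7 RPKM in the MEF Nf2fl/fl libraries and 85.4, 140.3 and 92.7 RPKM under the MEF Nf2-/- label and a smaller difference of 0.48 ± 0.11. Of 77 ribosomal protein genes 1 was called higher and 2 lower, with a median of -0.15 against -0.078 over all genes. Their lower calls numbered 23 without the library labelled MEF Nf2-/- replicate 1, with a median of -0.23, and 11 after quantile normalization, and the median was -0.08 without the one labelled MEF Nf2-/- replicate 3.

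Of 32 cell division genes 8 were called higher (25.0%, against 10.8% of all genes) and 0 lower (against 19.8%), with a median of 0.15 against -0.08 over all genes. Of 41 DNA replication genes 5 were called higher (12.2%, near the share of all genes) and 1 lower (2.44%). Their median was 0.07 (0.01 and 0.10 with a replicate 2 library left out). Without MEF Nf2fl/fl replicate 3 the median was 0.04 and 3 were called higher. Without the library labelled MEF Nf2-/- replicate 1, lower calls numbered 3. After a replicate 2 library was left out, 0 and 0 cell division and 1 and 1 DNA replication genes were called higher, and without MEF Nf2fl/fl replicate 3 and the library labelled MEF Nf2-/- replicate 1 in turn 2 and 5 cell division genes were. Median centring gave 14 cell division and 10 DNA replication genes called higher. Mki67, a marker of cycling cells, had 24.3, 24.9 and 22.5 RPKM in the control line and 23.7, 25.4 and 23.8 RPKM in the Cre line, with both replicate 2 libraries highest by a margin too small to be called. Cdk1, the kinase of mitotic entry, had 31.2, 40.4 and 25.7 RPKM in the control line and 32.7, 47.2 and 34 RPKM in the Cre line, a difference of 0.49 ± 0.09. Pcna, the sliding clamp, which shares 23.3% of its words with other genes, overlapped between replicates, with 115, 123 and 115 RPKM in the MEF Nf2fl/fl libraries and 123, 124 and 127 RPKM under the MEF Nf2-/- label.

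In the list of FOXO and growth arrest genes 10 of 19 were called lower and 2 higher (Irs2 and Cited2), with a median of -0.51. In this list 6 and 6 were called lower with a replicate 2 library left out. Gas1 (chromosome 13, 60174405 to 60177365), a membrane protein named for its level in arrested fibroblasts, had 17.0, 1.97 and 13.3 RPKM in the control line and 18.8, 2.73 and 12.9 RPKM in the Cre line, a difference of -2.29 ± 0.17. Cdkn1c, a cyclin-dependent kinase inhibitor that shares 27.2% of its words with other genes, had 35.0, 11.4 and 39.3 RPKM in the control line and 30.4, 8.98 and 32.8 RPKM in the Cre line, a difference of -1.66 ± 0.08. In both genes replicate 2 was below all 4 other libraries. Ccng2, a cyclin of arrested cells, had 6.17, 3.25 and 8.11 RPKM in the MEF Nf2fl/fl libraries and 9.26, 3.40 and 9.18 RPKM under the MEF Nf2-/- label, while Txnip, a glucose-responsive arrestin, overlapped between replicates with 24.0, 29.2 and 20.7 RPKM in the control line and 22.9, 16.5 and 14.7 RPKM in the Cre line.

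Cholesterol synthesis genes were lower without exception. All 25 tested genes were called lower, with differences from -1.85 to -0.57 and a median of -1.17, and in all 25 replicate 2 was the lowest library of both lines. The medians were -1.08 in MEF Nf2fl/fl and -1.23 under the MEF Nf2-/- label, and 15 and 11 members were called with a replicate 2 library left out. Insig1, which holds SREBP in the endoplasmic reticulum and is itself a target, had 63.2, 19.4 and 64.1 RPKM in the control line and 73.1, 15.6 and 61.3 RPKM in the Cre line, a difference of -1.85 ± 0.11. Fdps, which makes farnesyl diphosphate and shares 27.9% of its words with other genes, had 89.4, 25.5 and 74.5 RPKM in the MEF Nf2fl/fl libraries and 114, 23.9 and 78.0 RPKM under the MEF Nf2-/- label, a difference of -1.79 ± 0.17. Mvd, a decarboxylase of the mevalonate pathway, had 48.9, 13.3 and 40.2 RPKM in the control line and 59.7, 15.5 and 40.5 RPKM in the Cre line, a difference of -1.63 ± 0.16. Replicate 2 was below all 4 other libraries in these 3 genes. Replicates 1 and 3 differed too, with a list median of 0.34 for replicate 1 minus replicate 3, which was smaller than the replicate 2 difference in either line.

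Hmgcs1, which makes the first committed intermediate, had 65.9, 18.3 and 66.1 RPKM in the control line and 95.4, 20.1 and 62.9 RPKM in the Cre line, a difference of -1.84 ± 0.16. The 250 bases before its start (chr13:119690101-119690350, plus strand) are shown because they hold CACCCCAC, the sterol regulatory element letters, searched on both strands and marked in capitals at -136.
Hmgcs1: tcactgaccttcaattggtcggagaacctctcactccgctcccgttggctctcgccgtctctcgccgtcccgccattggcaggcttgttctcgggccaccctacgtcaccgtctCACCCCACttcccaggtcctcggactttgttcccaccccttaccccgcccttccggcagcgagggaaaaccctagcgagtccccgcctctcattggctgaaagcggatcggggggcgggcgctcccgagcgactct
The same 8 letters were in the windows of 2 of 17 cholesterol synthesis genes (11.8%), of 0 of 12 fatty acid synthesis genes and of 2.58% of all windows.

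Of 15 tested genes of fatty acid synthesis 9 were called lower and 0 higher, with a median of -0.96. Of these genes 6 and 5 were called lower with a replicate 2 library left out. Scd2 (chromosome 19, 44293674 to 44306864), a desaturase that introduces the double bond of oleate, had 380.3, 76.1 and 309 RPKM in the MEF Nf2fl/fl libraries and 489, 88.8 and 341 RPKM under the MEF Nf2-/- label, a difference of -2.17 ± 0.16. Its relative Scd1 had 69.1, 22 and 52.1 RPKM in the control line and 74.3, 14.9 and 45.1 RPKM in the Cre line, a difference of -1.65 ± 0.23. Both were below every other library in replicate 2. Fads2, a desaturase of polyunsaturated fatty acids, had 173, 75.2 and 159 RPKM in the control line and 212, 88.5 and 162 RPKM in the Cre line. Fasn, the synthase itself, was not called, with 80.4, 53.1 and 60.2 RPKM in the MEF Nf2fl/fl libraries and 81.2, 50.2 and 61.7 RPKM under the MEF Nf2-/- label and a difference of -0.44 ± 0.15.

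Of 31 tested interferon response and antigen presentation genes 19 were called lower and 0 higher, with a median of -0.60 (-0.68 and -0.41 in the lines). A further 14 genes were under the filter. When a replicate 2 library was left out, 11 and 12 were called lower. Isg15, a ubiquitin-like modifier, had 9.83, 2.79 and 7.39 RPKM in the control line and 6.07, 1.44 and 7.20 RPKM in the Cre line, and Stat2, a subunit of the interferon-activated factor, had 8.67, 2.40 and 7.12 RPKM in the control line and 7.75, 2.50 and 5.35 RPKM in the Cre line. Replicate 2 was below all others in both, with differences of -1.49 ± 0.13 for Isg15 and -1.24 ± 0.15 for Stat2.

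Ifit1, an RNA-binding antiviral protein, had 7.66, 1.21 and 7.04 RPKM in the MEF Nf2fl/fl libraries and 7.85, 1.46 and 5.85 RPKM under the MEF Nf2-/- label, a difference of -1.79 ± 0.12 at levels of a few RPKM. The 250 bases before its start (chr19:34640639-34640888, plus strand) are shown for the core of the interferon-stimulated response element, which is GAAA, any 2 bases and GAAA again, searched on both strands and marked in capitals at -104 and -85, where both matches lie on the opposite strand and read as TTTC.
Ifit1: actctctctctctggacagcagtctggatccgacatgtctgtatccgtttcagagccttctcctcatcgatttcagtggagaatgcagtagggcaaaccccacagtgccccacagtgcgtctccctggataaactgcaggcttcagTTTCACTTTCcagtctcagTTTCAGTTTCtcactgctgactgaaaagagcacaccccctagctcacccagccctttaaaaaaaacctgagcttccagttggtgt
In this list 12 of 27 genes with a window held this motif (44.4%), against 2.98% of all windows.

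Of 20 tested collagens 10 were called lower and 0 higher, with a median of -0.32 (-0.34 and -0.51 with a replicate 2 library left out), and 4 and 3 were called lower in those fits. With length and GC trends removed the median was -0.14 and 7 were called lower. With voom on recovered reads it was -0.50 and 10 were called lower. Col3a1 (chromosome 1, 45311538 to 45349706), a fibrillar collagen of soft tissue, had 82.0, 15.3 and 82.1 RPKM in the control line and 54.7, 6.95 and 29.8 RPKM in the Cre line. Col1a1 and Col1a2, the chains of type I collagen, had differences of -0.78 ± 0.14 and -1.29 ± 0.13, with Col1a2 at 259.6, 131 and 329.8 RPKM in the control line and 240.3, 92.4 and 263 RPKM in the Cre line. Replicate 2 was the lowest library of each line in all 3. The basement membrane collagens Col4a1 and Col4a2 and Col5a2, Col12a1 and Col18a1 were not called. Of 10 tested fibroblast markers, which include these collagens, 6 were called lower and 0 higher, and in RNA from a whole culture fewer cells of a kind cannot be told apart from less RNA per cell. The RPKM of the 12 markers summed to 1422 in replicate 2 of MEF Nf2fl/fl and 1172 in that under the MEF Nf2-/- label, against 1413 to 2116 in the other libraries, and the part of this in the collagen result was not tested. Of the 2 tested cartilage markers, Sox9, the transcription factor that defines cartilage, had 7.02, 6.26 and 10.1 RPKM in the MEF Nf2fl/fl libraries and 15.4, 5.79 and 18.9 RPKM under the MEF Nf2-/- label and was called lower (-0.89 ± 0.25), while Col2a1, the cartilage collagen, was not called (0.50 ± 0.43). The 4 cartilage markers with a value summed to 9.48 and 7.72 RPKM in replicate 2 and to 7.78 to 20.2 RPKM elsewhere, Acan was at most 0.00706 RPKM, and their part in the collagen result was not tested.

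Other matrix genes did not move together. Their counts stand beside 19.8% of all genes called lower and 10.8% called higher. The shares called lower and higher were 26.9% and 7.69% for glycoproteins and proteoglycans. For proteases and inhibitors they were 28.6% and 19.0%. Of 26 glycoproteins and proteoglycans 7 were called lower and 2 higher, with a median of -0.18. With a replicate 2 library left out the median was -0.23 and -0.09 and 2 and 3 were called lower, and without MEF Nf2fl/fl replicate 1 the median was -0.30. Ogn (osteoglycin), a small proteoglycan, had 13.3, 4.38 and 14.4 RPKM in the control line and 54.2, 6.12 and 35.1 RPKM in the Cre line, a difference of -2.06 ± 0.28, and Tnc (tenascin C), a glycoprotein of remodelling matrix, had 53.8, 121 and 26.9 RPKM in the control line and 36.3, 59.8 and 16.8 RPKM in the Cre line, a difference of 1.44 ± 0.36. Fn1 (fibronectin) overlapped between replicates, with 455, 477 and 491 RPKM in the MEF Nf2fl/fl libraries and 307, 314 and 295 RPKM under the MEF Nf2-/- label. Postn (periostin), a matricellular protein, had 5.98, 5.23 and 15.1 RPKM in the control line and 10.2, 2.54 and 5.49 RPKM in the Cre line, a difference of -1.02 ± 0.37, and Thbs1 (thrombospondin 1), another, had 124, 471 and 217 RPKM in the control line and 649, 821 and 813 RPKM in the Cre line, a difference of 0.85 ± 0.35. Neither was called. Among enzymes that process collagen 7 of 21 were called lower and 1 higher (median -0.22, and -0.29 and -0.14 with a replicate 2 library left out, when 5 and 1 were called lower), led by Loxl2, a lysyl oxidase that shares 46.4% of its words with other genes, with a difference of -0.88 ± 0.14. Lox itself was not called, at 0.30 ± 0.15. Of 21 proteases and inhibitors 4 were called higher and 6 lower, with a median of -0.22 (-0.12 without MEF Nf2fl/fl replicate 3) and 2 and 2 called lower with a replicate 2 library left out. Timp1, an inhibitor of metalloproteinases, had 119.6, 399 and 170.2 RPKM in the MEF Nf2fl/fl libraries and 86.7, 273 and 79.6 RPKM under the MEF Nf2-/- label, Plaur, the urokinase receptor, had 12.6, 44.0 and 12.5 RPKM in the control line and 8.13, 36.6 and 10.6 RPKM in the Cre line, and Mmp2, a gelatinase, had 102, 71.7 and 139 RPKM in the control line and 110.2, 63.5 and 112 RPKM in the Cre line. Replicate 2 was the highest library of each line for Timp1 and Plaur and the lowest for Mmp2.

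Of 31 lysosome and autophagy genes 19 were called lower and 0 higher, with a median of -0.42. Neu1, a lysosomal sialidase, had 16.2, 6.67 and 12.6 RPKM in the MEF Nf2fl/fl libraries and 16.2, 7.75 and 13.2 RPKM under the MEF Nf2-/- label, a difference of -0.92 ± 0.12, while Lamp1, a major membrane protein of lysosomes, had 432, 338 and 389 RPKM in the control line and 367, 322 and 335 RPKM in the Cre line and was not called. Of 21 endoplasmic reticulum chaperone genes 11 were called lower and 1 higher, with a median of -0.29. Hspa5 (BiP), the main chaperone, had 237, 172 and 222 RPKM in the control line and 311, 196 and 281 RPKM in the Cre line. Of 22 targets of NRF2, the antioxidant transcription factor, 13 were called lower and 2 higher (Txnrd1 and Abcc1), with a median of -0.44. Gstm1, a glutathione transferase that shares 28.8% of its words with other genes, had 23.6, 8.77 and 32.6 RPKM in the MEF Nf2fl/fl libraries and 25.0, 8.02 and 21.4 RPKM under the MEF Nf2-/- label. Fth1, the ferritin heavy chain, had 1164, 635 and 1105 RPKM in the control line and 1008, 596 and 868 RPKM in the Cre line, a difference of -0.74 ± 0.12. Nqo1, a quinone reductase, had 10.8, 8.11 and 10.5 RPKM in the control line and 9.08, 5.61 and 7.97 RPKM in the Cre line, whereas Gclc and Gclm, the subunits of the enzyme that limits glutathione synthesis, overlapped between replicates. Hmox1, heme oxygenase 1, had 52.0, 40.7 and 74.2 RPKM in the MEF Nf2fl/fl libraries and 45.0, 34.8 and 53.9 RPKM under the MEF Nf2-/- label, a difference of -0.54 ± 0.15. Sqstm1 (p62), an autophagy receptor, had 159, 105 and 144 RPKM in the control line and 135, 87.9 and 137 RPKM in the Cre line, a difference of -0.57 ± 0.09. When a replicate 2 library was left out, 6 and 6 lysosomal, 4 and 0 chaperone and 6 and 3 NRF2 target genes were called lower.

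Among energy metabolism and amino acid stress genes, those of the respiratory chain were called lower at a share close to that of all genes. The shares of glycolytic (27.3%), hypoxia response (37.5%) and ATF4 and amino acid stress genes (36.8%) called lower were above the 19.8% of all genes. Called higher were 9.09%, 12.5% and 5.26% of them, against 10.8% of all genes. Of 74 nuclear respiratory chain genes 14 were called lower (18.9%, against 19.8% of all genes) and 0 higher, with a median of -0.15. These lower calls numbered 1 and 2 with a replicate 2 library left out, 5 without MEF Nf2fl/fl replicate 3 and 6 after median centring. Of 22 glycolytic genes 6 were called lower and 2 higher (median -0.22, and -0.14 and -0.33 with a replicate 2 library left out), and of 16 hypoxia response genes 6 were called lower and 2 higher (median -0.19, and -0.04 and -0.24 with a replicate 2 library left out). In the same fits 1 and 5 glycolytic and 0 and 2 hypoxia response genes were called lower, and without MEF Nf2fl/fl replicate 3 the hypoxia median was -0.10. Ldha, lactate dehydrogenase A, had 256, 196 and 234 RPKM in the control line and 134, 133 and 156 RPKM in the Cre line, a difference of -0.22 ± 0.11. Vegfa, the endothelial growth factor induced by hypoxia, had 15.3, 14.4 and 17.3 RPKM in the MEF Nf2fl/fl libraries and 10.8, 11.6 and 11.8 RPKM under the MEF Nf2-/- label, a difference of -0.07 ± 0.09. Neither was called. Of 38 ATF4 and amino acid stress genes 14 were called lower and 2 higher, with a median of -0.14 and 6 and 7 called lower with a replicate 2 library left out. Ddit4, an inhibitor of mTORC1, had 103, 34.9 and 85.3 RPKM in the control line and 106, 41.7 and 77.6 RPKM in the Cre line, a difference of -1.25 ± 0.15 with replicate 2 below all other libraries. Atf4 itself was not called, with 102, 121 and 83.8 RPKM in the control line and 92.4, 107 and 96.9 RPKM in the Cre line, and Asns, its target for asparagine synthesis, overlapped between replicates.

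**Figure D5:**
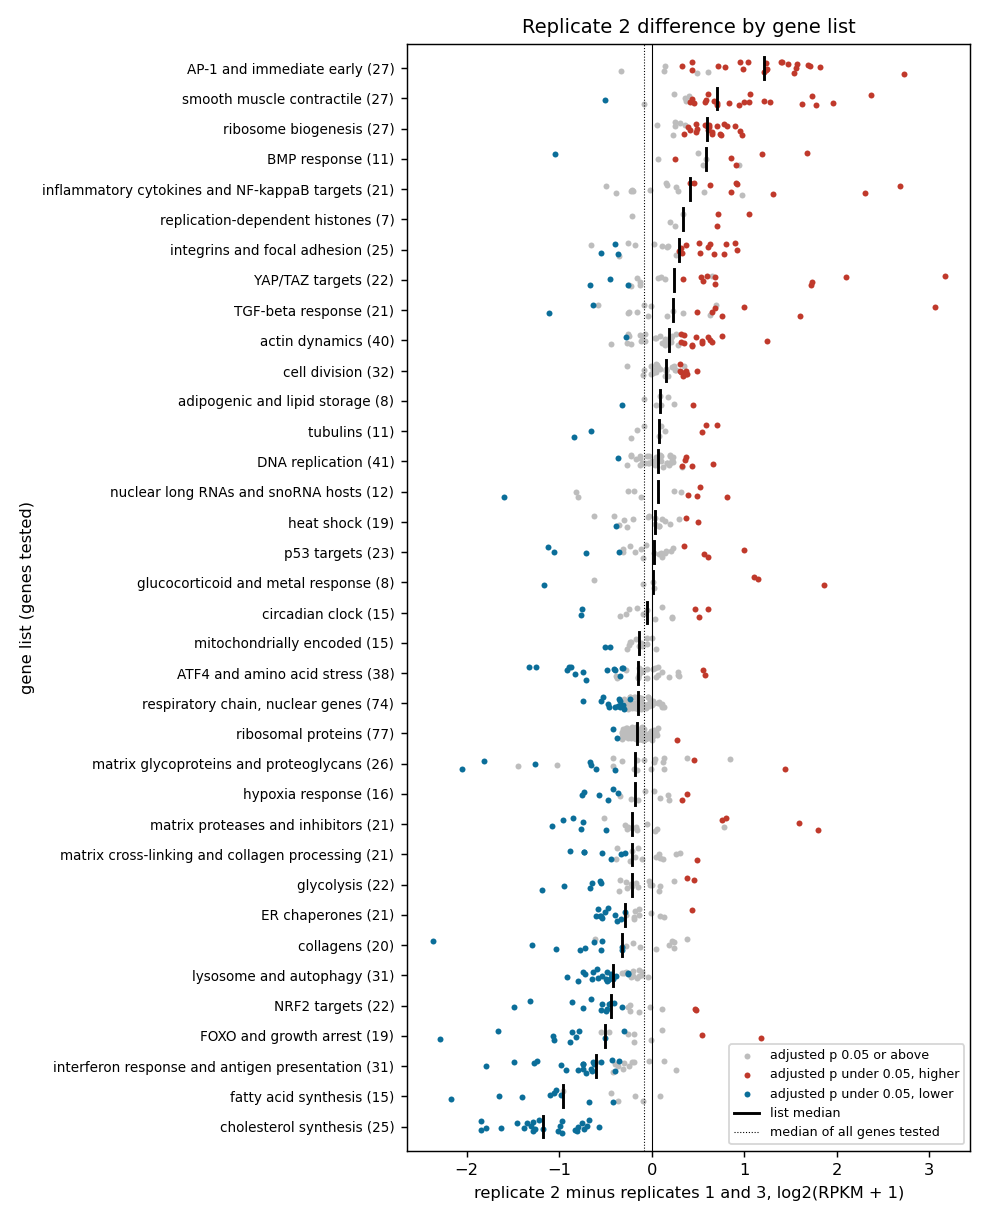
Replicate 2 minus replicates 1 and 3 in log2(RPKM + 1) (horizontal axis) of each tested gene in the gene lists with 5 or more tested genes, ordered by the list median (black bar), with called genes in red (higher) or blue (lower) and the median of all genes dotted. The list medians run from -1.17 for cholesterol synthesis to 1.22 for AP-1 and immediate early genes.

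The leading genes outside the lists included protease inhibitors. Serpinb1a, an inhibitor of neutrophil proteases, had 13.1, 1.90 and 42.1 RPKM in the MEF Nf2fl/fl libraries and 12.4, 1.13 and 6.15 RPKM under the MEF Nf2-/- label, a difference of -2.65 ± 0.48 with a wide error, and Serpinb9, an inhibitor of granzyme B, had 14.5, 4.65 and 25.1 RPKM in the control line and 22.9, 4.82 and 27.3 RPKM in the Cre line, a difference of -2.0 ± 0.21. Fam180a had 8.42, 0.755 and 5.77 RPKM in the control line and 8.95, 1.19 and 5.15 RPKM in the Cre line. Gm12481, whose words are all shared with other genes, differed by -2.49 ± 0.45. Replicate 2 was below both other libraries of its line in these 4 genes. Krt19, a keratin also found in cultured fibroblasts, had 23.3, 39.5 and 21.0 RPKM in the MEF Nf2fl/fl libraries and 10.4, 27.6 and 21.8 RPKM under the MEF Nf2-/- label and was not called. The 10 epithelial markers summed to 40.0 and 28.0 RPKM in replicate 2 and to 11 to 24.3 RPKM elsewhere, nearly all from Krt19. Kdr, a VEGF receptor, had 1.32, 3.75 and 1.62 RPKM in the control line and 1.37, 4.39 and 1.74 RPKM in the Cre line, a difference of 1.02 ± 0.11. The 8 endothelial markers summed to 3.89 and 4.46 RPKM in replicate 2 and to 1.46 to 1.84 RPKM elsewhere, nearly all from Kdr, and the 10 macrophage markers to 6.09 to 8.95 RPKM in all libraries, most of it from Cd68. Krt19, Kdr and Acta1 are named as markers of other cell types and not for their differences. Dnajc12 was just inside the filter on low values, with 1.00 RPKM in its library of rank 3, and Lcorl just outside it, with 0.999 RPKM.

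Sequence properties were compared with the difference across genes. Across 11053 genes with an annotated exon length, the replicate 2 difference had a Spearman correlation of 0.082 with exon length and of -0.151 with GC content, both across genes and not across samples. For replicate 1 minus replicate 3 they were 0.180 and -0.088. With each library's trend on length and GC content removed, an alternative chosen after seeing the data, 3182 genes were called, 53.1% of them higher, and 2669 of the calls were shared. Besides that of the collagens, the list medians that then moved by over 1.5 times included those of TGF-beta response (0.35), matrix glycoproteins (-0.07), matrix proteases (-0.11), glycolysis (-0.11), hypoxia response (-0.12), ribosomal proteins (-0.06), replication-dependent histones (0.52) and the nuclear respiratory chain (-0.04, with 5 called lower).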

How the data were processed

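RNA was measured by sequencing in 6 libraries, 3 of each line, and grouped by GEO's labels. The deposited table gave RPKM for each gene, computed by the authors before deposit with mm10 named in the submitters' processing notes; the aligner and counter were not given in the sources used here, and RPKM was read from the values. Steps between low values gave whole reads within 0.05 read for 83.7 to 85.5% of values up to 20 reads (10.0% by chance) and depths of 13428798 to 72911147 reads, so low values are least precise in the shallower libraries.

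Values were taken as log2(RPKM + 1), genes were kept if 3 or more libraries had 1 RPKM or more, and limma 3.58.1 (R 4.3.3, trend and robust) was fitted over all 11067 genes with the line as a block and Benjamini-Hochberg adjustment. The interaction of line and replicate 2, and replicate 1 against replicate 3, were fitted alike. The procedure was tested on simulated data. Named genes were the 8 largest differences in each direction among calls with a mean of at least 5 RPKM, and, in lists with at least 3 calls, up to 4 called members and anchor genes. The members, gene lists and tests were chosen with earlier results of these data known.

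Same-numbered libraries of the lines deviated together from their line means (correlations of 0.552, 0.819 and 0.516 across genes). The deviations within a line cancel by construction, so a shared replicate 2 deviation alone gives positive correlations for replicates 1 and 3. These values therefore cannot tell whether the numbers pair those libraries. Blocking on the replicate number was one of the alternatives. Others were a pseudocount of 0.1, median centring, quantile normalization, a filter of 5 RPKM or none, no line block, a threshold of 0.01, voom on recovered reads, each library left out, replicate 2 against replicate 1 or 3 alone, and, added after seeing the data, removal of length and GC trends. Exon lengths and shared words came from GENCODE (GRCm38), and promoters from RefSeq (GRCm38.p6). Figures were drawn with matplotlib 3.10.9. Some genes that met the naming rule are not reported here.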

Additional observations from a re-analysis of the deposited data

How the results depend on the processing

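Genes called between replicate 2 and the others numbered 884 without the filter (381 higher, 503 lower), 1976 without the line block (699 and 1277) and 1162 at a threshold of 0.01 (436 and 726). Calls on the lower side were 1412 after quantile normalization and 1414 with a filter of 5 RPKM. With each library left out in turn, calls ranged from 699 to 3375 (283 to 1160 higher, 416 to 2215 lower), the fewest without the replicate 2 libraries, labelled MEF Nf2-/- (699) or MEF Nf2fl/fl (832). The interaction gave 0 to 16 genes and could not be fitted without a replicate 2 library. With the replicate block 3689 genes were called (1258 higher, 2431 lower), 3277 of them shared, and the interaction gave 0. With voom on recovered reads 3307 were called. Of 161 called genes named by the rule, 158 kept their call with the replicate block, 158 with voom, 149 under both other scalings, and 73 when either replicate 2 library was left out in turn, and 0 changed direction. The medians of 5 lists changed sign in some setting: circadian clock, glucocorticoid and metal response, heat shock, p53 targets and tubulins. The causes of these changes were not tested.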

Other observations

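Counts in smaller gene groups stand beside 10.8% of all genes called higher and 19.8% called lower. Of 23 tested p53 targets 4 were called higher and 4 lower (7 lower without the library labelled MEF Nf2-/- replicate 3). Cdkn1a, the p53-induced cell cycle inhibitor, overlapped between replicates with 155, 139 and 152 RPKM in the control line and 191, 164 and 160.4 RPKM in the Cre line, while Bbc3, an inducer of apoptosis, had 10.2, 4.15 and 9.89 RPKM in the MEF Nf2fl/fl libraries and 11.7, 4.0 and 8.56 RPKM under the MEF Nf2-/- label, below every other library in replicate 2 of both lines. Of 15 clock genes 3 were called higher and 2 lower. The list median was -0.06, which turned positive after median centring or quantile normalization and without the MEF Nf2fl/fl replicate 2 library. Nr1d1, a repressor of the clock, had 8.45, 14.3 and 10.7 RPKM in the control line and 5.94, 8.96 and 6.36 RPKM in the Cre line, and Dbp, a clock output factor, had 2.79, 1.02 and 3.55 RPKM in the control line and 1.29, 0.696 and 1.42 RPKM in the Cre line. Of 8 glucocorticoid and metal response genes 3 were called higher and 1 lower. Sgk1, a serum- and glucocorticoid-induced kinase, had 4.47, 18.3 and 5.51 RPKM in the MEF Nf2fl/fl libraries and 5.77, 24.8 and 4.79 RPKM under the MEF Nf2-/- label, a difference of 1.86 ± 0.12, whereas Fkbp5 and Tsc22d3, induced by glucocorticoids, overlapped between replicates. Mt1, a metal-binding protein, had 99.4, 31.4 and 85.2 RPKM in the control line and 48.6, 21.7 and 30.6 RPKM in the Cre line.

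Among 12 nuclear long RNAs and snoRNA hosts 4 were called higher and 1 lower. Neat1, the scaffold RNA of paraspeckles, had 27.2, 7.42 and 18.6 RPKM in the control line and 22.1, 4.61 and 13.9 RPKM in the Cre line, a difference of -1.60 ± 0.21, while Malat1, a nuclear speckle RNA, had 84.5, 80.7 and 70.5 RPKM in the MEF Nf2fl/fl libraries and 77.8, 52.8 and 54.6 RPKM under the MEF Nf2-/- label and was not called. Snhg1, a host of small nucleolar RNAs, had 24.9, 38.3 and 20.7 RPKM in the control line and 22.2, 41.4 and 21.1 RPKM in the Cre line, a difference of 0.82 ± 0.10. Of 11 tubulins 3 were called higher and 2 lower, with Tuba1c at 171, 254 and 175 RPKM in the control line and 132, 261 and 156 RPKM in the Cre line and Tubb2b at 19.0, 14.4 and 24.2 RPKM in the MEF Nf2fl/fl libraries and 30.2, 15.6 and 41.6 RPKM under the MEF Nf2-/- label. Tuba1c and Tubb2b share 55.3% and 43.1% of their words with other genes, which leaves the assignment of their reads uncertain. Of 55 replication-dependent histone genes 7 passed the filter, 3 were called higher and 0 lower. Of 19 heat shock genes 2 were called higher and 1 lower, and the list median changed sign under quantile normalization. Of 15 mitochondrially encoded genes 2 were called lower and 0 higher, and of 8 adipogenic genes 1 was called in each direction. With the MEF Nf2fl/fl replicate 2 library left out, then the one labelled MEF Nf2-/-, 1 and 2 p53 targets, 1 and 1 clock genes, 3 and 2 glucocorticoid and metal response genes, 2 and 1 long RNAs, 1 and 0 tubulins and 0 and 0 histone genes were called higher, and no mitochondrially encoded, adipogenic or heat shock gene was called in either direction. In the same order 1 and 1 p53 targets, 0 and 1 clock genes, 0 and 1 glucocorticoid and metal response genes, 1 and 0 long RNAs and 2 and 0 tubulins were called lower.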
